A study of Mus musculus with 20 samples.

Results

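The 10 genes described here encode proteins of blood coagulation and of its control: prothrombin (F2), factors V, VII, IX, X, XI and XII (F5, F7, F9, F10, F11, F12), the B subunit of factor XIII (F13b), plasminogen (Plg) and antithrombin (Serpinc1). They were chosen as a named gene family and looked up by Ensembl identifier among the 57010 genes of the count table, where all 10 were found. Their RNA was read in bulk libraries of liver and kidney from 10 male UM-HET3 mice, a heterogeneous stock whose animals are genetically distinct siblings. The mice were 12 months old when an osmotic minipump was placed under the skin for 28 days. In 6 mice it delivered 7c, a cocktail of repsox, tranylcypromine, DZNep, TTNPB, CHIR99021, forskolin and valproate, at 1 mg/kg/day of valproate and 0.1 mg/kg/day of each of the other compounds. In the 4 control mice it delivered the vehicle alone, 50% DMSO in PEG300, which the 7c mice received too. The labels name no transgene or deletion in any group. The design asks whether 7c changed RNA levels in either organ, and it allows liver to be set against kidney in the control mice.

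Coagulation is a chain of serine proteases, each made as an inactive precursor and switched on by the one before. The contact factors XII and XI and the tissue factor pathway, which starts with factor VII, meet at factor X, which with its cofactor, factor V, turns prothrombin into thrombin. Thrombin makes fibrin, factor XIII cross-links it, antithrombin blocks the proteases, and plasminogen becomes plasmin, which dissolves the clot. Hepatocytes make most of these proteins and secrete them into plasma, and their genes are known for liver-restricted transcription under factors such as HNF4, FOXA and C/EBP proteins. A kidney is supplied with the finished proteins by the blood, so that their RNA is usually scarce there.

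The sequence before each gene's start was read from the GRCm39 genome, from 250 bases before the start of the GENCODE canonical transcript to 50 bases from it, 300 bases in all. Both strands were searched for 3 short motifs bound by such factors: CAAAGNNCA (HNF4), TGTTTNC (FOXA) and TTGCNNAA (C/EBP). At least 1 of the 3 was found in 7 of the 10 genes, all but F2, F12 and F13b, and in 31.8% of the 21651 promoters of protein-coding genes. The HNF4 letters were in 3 (F7, F9 and Serpinc1) against 6.16% of all promoters, the FOXA letters in 3 (F10, F11 and Plg) against 19.7%, and the C/EBP letters in 3 (F5, F9 and Serpinc1) against 10.7%. Such matches describe the letters and do not show that a factor was bound, nor does their absence show that none was. The promoters of F2 and Plg are shown because these genes had the lowest log2 fold changes of the 6 that could be tested in the 7c kidneys, that of F13b because it had by far the highest kidney level, and that of F9 because it held the most matches. Each is written 5′ to 3′ on the strand of the gene, with motif matches in capitals.
F2 (chr2:91466758-91467057, minus strand, no match): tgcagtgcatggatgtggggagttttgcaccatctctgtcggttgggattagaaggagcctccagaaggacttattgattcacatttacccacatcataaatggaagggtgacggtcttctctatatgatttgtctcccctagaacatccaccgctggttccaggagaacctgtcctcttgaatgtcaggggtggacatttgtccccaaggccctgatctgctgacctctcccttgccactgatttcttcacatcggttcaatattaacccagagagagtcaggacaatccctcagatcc
Plg (chr17:12597241-12597540, plus strand, 1 FOXA match): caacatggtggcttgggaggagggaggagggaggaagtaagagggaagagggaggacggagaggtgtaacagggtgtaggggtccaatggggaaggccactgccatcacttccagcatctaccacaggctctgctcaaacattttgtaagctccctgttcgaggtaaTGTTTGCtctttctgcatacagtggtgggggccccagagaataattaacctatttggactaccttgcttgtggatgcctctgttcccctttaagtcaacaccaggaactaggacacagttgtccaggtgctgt
F13b (chr1:139429157-139429456, plus strand, no match): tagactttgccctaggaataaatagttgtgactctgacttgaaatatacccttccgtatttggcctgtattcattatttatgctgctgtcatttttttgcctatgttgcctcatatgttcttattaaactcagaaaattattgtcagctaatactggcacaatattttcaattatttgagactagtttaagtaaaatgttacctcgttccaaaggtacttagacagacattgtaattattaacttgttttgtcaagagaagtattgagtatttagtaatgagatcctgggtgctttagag
F9 (chrX:59044574-59044873, plus strand, 2 HNF4 matches and 1 C/EBP match): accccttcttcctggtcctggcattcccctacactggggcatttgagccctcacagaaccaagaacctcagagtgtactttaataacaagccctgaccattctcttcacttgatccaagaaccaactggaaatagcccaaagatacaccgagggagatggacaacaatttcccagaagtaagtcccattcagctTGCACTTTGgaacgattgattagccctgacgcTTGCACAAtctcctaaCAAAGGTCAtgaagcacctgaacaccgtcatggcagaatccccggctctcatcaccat
Counted from 0 at the start base, the HNF4 letters of F9 lay at -56 to -48 and at -8 to 0, and its C/EBP letters between them at -24 to -17. In Plg the FOXA letters lay at -83 to -77. None of the matches overlapped another in these 4 sequences, and the windows of F2 and F13b held none of these letters.

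The deposited values were raw counts per gene. Library totals were 28383359 to 34153084 in liver, where the largest 7c total (30571119) was under the smallest vehicle total (31670440), and 27855849 to 64872451 in kidney. Levels are given as CPM, counts per 1000000 counts of a library, after TMM scaling within a tissue. The fits of liver against kidney scaled both organs together, so their fold changes differ from ratios of these CPM between organs. Hepatocyte markers summed to 91964 CPM or more in each liver, and markers of the proximal tubule to 33008 CPM or more in each kidney, so that each organ carried its own markers. The liver of 7c replicate 6 also held skeletal muscle RNA, with 223 CPM of Acta1 against at most 0.0722 CPM in the other 7c livers and 0 in the vehicle livers. Among genes with 1 to 20 counts, 75.1 to 83.2% of the counts were even numbers in every library, so that 2 counts may often stand for 1 fragment. Counting intervals are then too narrow, and tests were repeated with the counts halved.

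In vehicle mice the 10 genes were higher in the 4 livers than in the 4 kidneys. For 6 of them, F2, F5, F10, F13b, Plg and Serpinc1, each vehicle kidney held at least 10 counts. All 6 passed the test (edgeR quasi-likelihood test, Benjamini-Hochberg adjusted p at most 3.65e-05), where 53.4% of the 17245 genes tested passed the threshold of 0.05 in either direction and 25.7% were higher in liver. The median log2 fold change of the 6 was 9.71 against -0.06 over all genes tested. Plg had the largest of the 6, 11.41 (standard error 0.325), followed by F2 at 10.90 (standard error 0.512), F10 at 10.24 (standard error 0.218) and Serpinc1 at 9.18 (standard error 0.341). F5 and F13b stood apart, with 5.45 (standard error 0.515) for F5 and 1.82 (standard error 0.220) for F13b. F7, F9, F11 and F12 passed the count filter only through the livers, where they are high, and had 27, 22, 6 and 18 counts over the 4 vehicle kidneys. Their fitted values of 9.99 (F7), 10.97 (F9), 11.91 (F11) and 11.99 (F12) are therefore descriptions set by few kidney counts, and the order of F11, which factor XIIa activates, and F12, the zymogen that starts the contact phase, changed between settings. The direction and the call of the 6 genes held without any 1 replicate and under every alternative.

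Between genes, levels were compared per kilobase of the canonical transcript (RPKM). In the 10 livers, F2 (887.8 ± 60.1 RPKM, SD, n = 10) and Plg (815.4 ± 92.8 RPKM) ranked highest, and their ranges over livers overlapped. Serpinc1 followed at 426.0 ± 38.0 RPKM. F10, the protease that makes thrombin, had 195.2 ± 15.6 RPKM and F12 had 166.9 ± 27.8 RPKM, again with overlapping ranges. Below them came F13b (97.3 ± 11.6 RPKM), F9 (75.1 ± 7.94 RPKM) and F7 (72.1 ± 5.41 RPKM), of which each overlapped the next, and then F5 (49.0 ± 5.19 RPKM) and F11 (42.2 ± 6.01 RPKM), which overlapped each other. The vitamin K-dependent zymogens F2, F10, F9 and F7 thus spanned the scale from the first to the eighth rank. With the length of all annotated exons in place of the canonical transcript, F2 and Plg changed places and the other 8 kept their ranks.

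Each gene varied little across livers. The ratio of the highest to the lowest liver was 1.24 for F2, the lowest of the 10, and 1.62 for F12, the highest. Each of the 10 genes had at least 2881 counts in every liver.

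**Figure D1:**
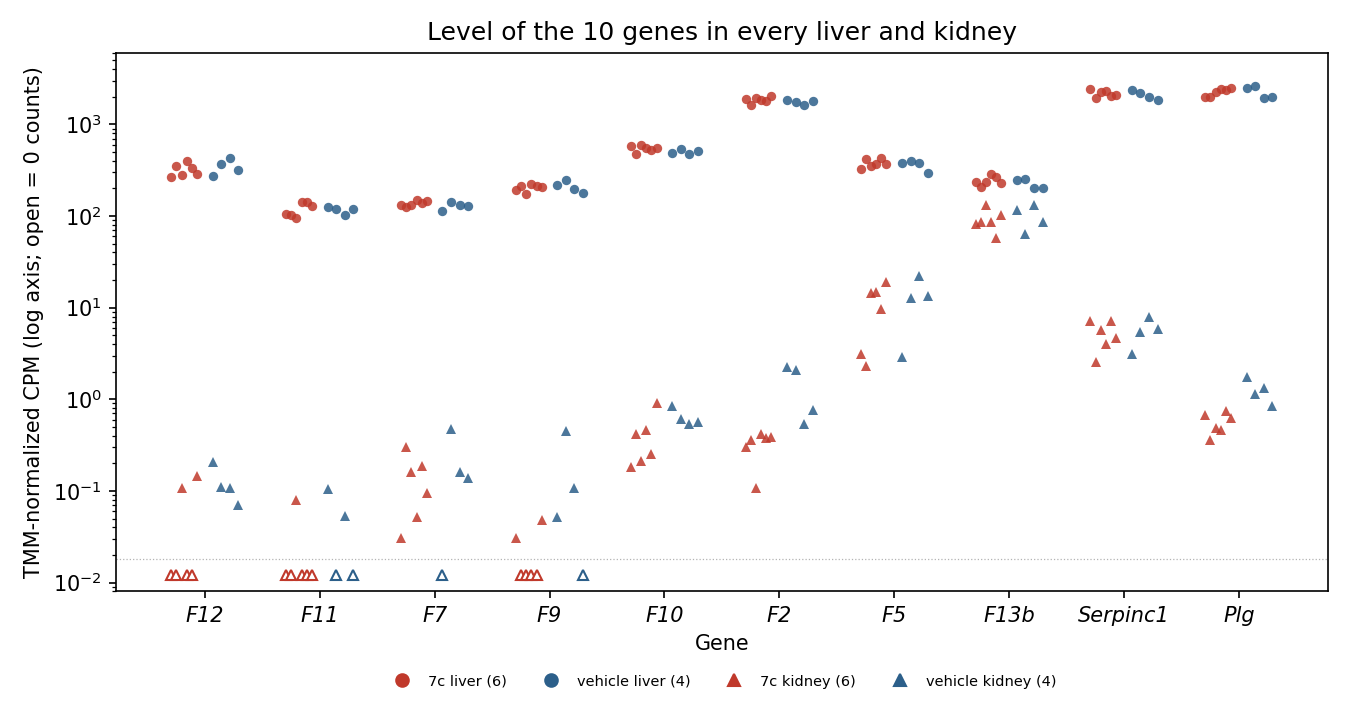
TMM-normalized CPM of the 10 genes (log axis) in each of 6 7c and 4 vehicle livers (circles) and 6 7c and 4 vehicle kidneys (triangles), with open symbols for libraries with 0 counts. The livers of a gene lie in a narrow band, while the kidneys range from 0 to 133 CPM and come near the liver band only for F13b.

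In kidney the 10 genes fell into very different ranges. F13b, the carrier subunit that stabilizes plasma factor XIII, had 57.5 to 133 CPM (1837 to 5403 counts) in the 10 kidneys and 200.1 to 284.7 CPM in the livers. Its mean was 99.3 ± 30.2 CPM (SD, n = 4) in vehicle kidneys, 44.1% of the CPM in vehicle livers, with each organ scaled separately. With both organs scaled together the gap was wider, a log2 fold change of 1.82. No kidney reached the lowest liver.

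F5, the cofactor of factor X, varied most among the well counted genes, from 2.28 to 22.1 CPM. In the 7c kidneys it had 3.10, 2.28, 14.5, 15.0, 9.64 and 18.9 CPM (replicates 1 to 6), and in the vehicle kidneys 2.90, 12.8, 22.1 and 13.5 CPM (replicates 1 to 4). The 3 low kidneys were of both treatments, and the other 7 had at least 9.64 CPM. Serpinc1, the inhibitor of thrombin and factor Xa, had 2.52 to 7.89 CPM.

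The other 7 genes stayed under 2.3 CPM in every kidney. F2, Plg and F10 had counts in all 10 kidneys, with highest values of 2.22, 1.75 and 0.913 CPM. F7, the protease that works with tissue factor, had at most 17 counts and was at 0 in 1 kidney. F9, which with factor VIII activates factor X, was at 0 in 5 kidneys, F12 in 4 and F11 in 7. A count of 0 allows up to 0.0454 to 0.105 CPM in these libraries (3 counts), a limit that covers counting error only.

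Because 5 of the 10 genes share their locus with other transcripts and the strand setting of the counting is not given in the sources used here, reads of F5, F12, F13b, Plg and Serpinc1 cannot be told apart with certainty from those of transcripts on the other strand. On that strand the last part of Serpinc1 overlaps Zbtb37, the last part of Plg overlaps Slc22a3, and F5 overlaps the non-coding Gm16548. On the same strand F5 overlaps Gm16588 (4 counts in all libraries) and Serpinc1 overlaps Gm37729 (899 counts), whatever the strand setting. F12 overlaps Gm59933 on the opposite strand, which was not analysed here. F7 and F10 lie side by side on chromosome 8, 1483 bases apart on the same strand, and do not overlap.

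The wider pathway was divided between the organs. Of 50 further genes of coagulation, fibrinolysis and their regulation, 40 had at least 10 counts in every vehicle library of both organs, and of these 27 were higher in liver and 8 higher in kidney. Among all 12403 genes with such counts the shares were 29.7% and 23.5%, and among all 17245 tested they were 25.7% and 27.7%. Of the genes counted in both organs, 6 of 7 of initiation and its cofactors were higher in liver (1 lower), 5 of 7 of the vitamin K cycle and other Gla proteins (1 lower), 2 of 4 anticoagulants (2 lower) and 4 of 9 of fibrinolysis (4 lower). The 3 fibrinogen chains, the substrate of thrombin, were higher in liver by 8.45 (Fga), 11.72 (Fgb) and 9.93 (Fgg) on the log2 scale. All 4 contact-phase genes tested were higher in liver in this fit, among them kininogen, Kng1 (10.29), whose near-identical copy Kng2 (0.53) may share its reads. The direction of Kng2 depended on the scaling. With each organ scaled separately, its mean was 276 CPM in the 10 livers and 306 CPM in the 10 kidneys. Heparin cofactor II, Serpind1, had a log2 fold change of 10.96. Higher in kidney were urokinase (Plau, -7.72), tissue plasminogen activator (Plat, -4.92), Gas6, a vitamin K-dependent ligand (-2.82), and thrombomodulin, Thbd (-2.39). The protease-activated receptor F2rl1 had 8, 2, 0 and 10 counts in the vehicle livers and 378, 364, 590 and 476 in the vehicle kidneys, so that it passed the filter through the kidneys and its fitted value (-5.79) is a description.

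Tissue factor, F3, which starts coagulation when it meets factor VII, was higher in kidney (-1.26, standard error 0.318). F8, the cofactor of factor IX, and Vwf, its carrier in plasma, were higher in liver, by 2.04 and 2.29. Proc, the precursor of the anticoagulant protein C, was higher in liver by only 1.34 (standard error 0.201). With each organ scaled separately, it had 515 to 576 CPM in vehicle livers and 251 to 479 CPM in vehicle kidneys.

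The regulators of liver transcription divided too. Cebpa (4.06) and Cebpb (1.78) were higher in liver. Foxa2 passed the filter through the livers, with 786 to 1045 counts there and 6, 12, 0 and 0 in the vehicle kidneys. Foxa1 had 2073 counts in the vehicle livers and 2 in the vehicle kidneys, a ratio of 1079 between the depth-scaled sums (95% exact binomial interval 298 to 8918, counting error only). Onecut1 had 0 counts in all 4 vehicle kidneys, so that its level was at least 58.8-fold higher in vehicle liver, with 3 counts per library as the limit. Hnf4a (-0.11, adjusted p = 0.598) and Nr1h4 (0.34, adjusted p = 0.156) did not pass the threshold between the organs.

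**Figure D2:**
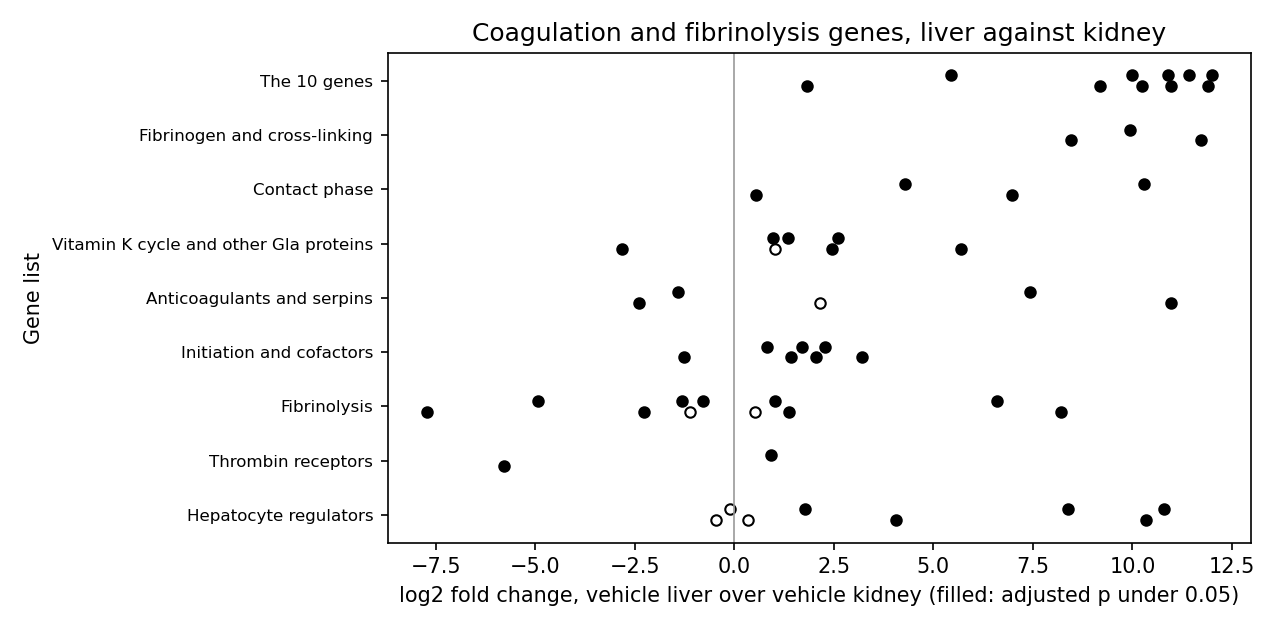
log2 fold change of vehicle liver over vehicle kidney for each tested gene of 9 lists (4 libraries per organ), filled where the adjusted p was under 0.05. The fibrinogen chains and 8 of the 10 genes lie at 8.45 or higher, with F5 at 5.45 and F13b at 1.82 as the lowest of the 10, while fibrinolysis genes spread from -7.72 to 8.22.

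Against that background, no difference between 7c and vehicle livers larger than the spread between mice was found for the 10 genes. None of the 10 passed the threshold, under which 0.00666% of 15012 genes were called (1 gene). None of the 10 had an unadjusted p under 0.05 either, a level that 3.76% of all genes reached, and none was called by DESeq2 (0.04% of all genes), limma-voom (0.00666%), edgeR's likelihood ratio test (0.0466%) or with both tissues in 1 fit (0.0266%). The log2 fold changes ran from -0.12 (F12, standard error 0.140) to 0.12 (F10, standard error 0.0868), with a median of 0.05 against 0.0017 over all genes tested, and every adjusted p was 1.00. The standard errors ran from 0.0862 (F2) to 0.140 (F12), and a change of their size was not detectable.

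F10 had 476, 552 and 597 CPM as lowest, median and highest of the 6 7c livers, and 486, 535, 478 and 507 CPM in the vehicle livers (replicates 1 to 4). Of the 7c livers, 4 were above the vehicle range and 1 was below it, so the groups overlapped (exact permutation test, two-sided, p = 0.105). F2 had 1625, 1860 and 2013 CPM in the 7c livers and 1820, 1747, 1637 and 1793 CPM in the vehicle livers. Again 4 of the 7c livers were above the vehicle range and 1 was below it, and the log2 fold change was 0.08 (standard error 0.0862, p = 0.219 in the exact permutation test).

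F12 had 263, 313 and 398 CPM in the 7c livers and 274, 371, 425 and 321 CPM in the vehicle livers. Its log2 fold change of -0.12 ran from -0.22 to -0.0053 when 1 replicate was left out, and 1 of its 7c livers was below the vehicle range. Plg had 1986, 2296 and 2488 CPM against 2473, 2622, 1913 and 1999 CPM, so that no 7c liver was outside the range of the vehicle livers.

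None of the 10 genes had all 6 7c livers outside the vehicle range, which 0.4% of the genes tested had below it and 0.32% above it. The other 6 genes had log2 fold changes of -0.04 (F9) to 0.11 (F13b), with exact permutation p-values of 0.271 (F7) to 0.900 (F11). The mean CPM was higher in the 7c livers for 7 of the 10. Without 7c replicate 6, the liver with muscle RNA, again none of the 10 was called.

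The rest of the pathway in liver gave the same count. Of 46 tested genes none was called, with a median of 0.04, and Cebpb alone had an unadjusted p under 0.05. Cebpb, a transcription factor of the acute-phase response, had 22.1, 31.3 and 41.8 CPM as lowest, median and highest of the 7c livers and 14.6, 15.9, 18.8 and 30.0 CPM in the vehicle livers (0.68, standard error 0.228, unadjusted p = 0.0106, adjusted p = 1.00). The groups overlapped through vehicle replicate 4. The next lowest unadjusted p-values of the quasi-likelihood test belonged to the thrombin receptor F2r (-0.28) and to Gas6 (0.20), neither of them under 0.05.

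The fibrinogen chains differed by -0.03 (Fga), -0.04 (Fgb) and -0.03 (Fgg). The log2 fold change was -0.08 for F3, -0.19 for F8, 0.13 for Vwf and 0.10 for Proc.

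**Figure D3:**
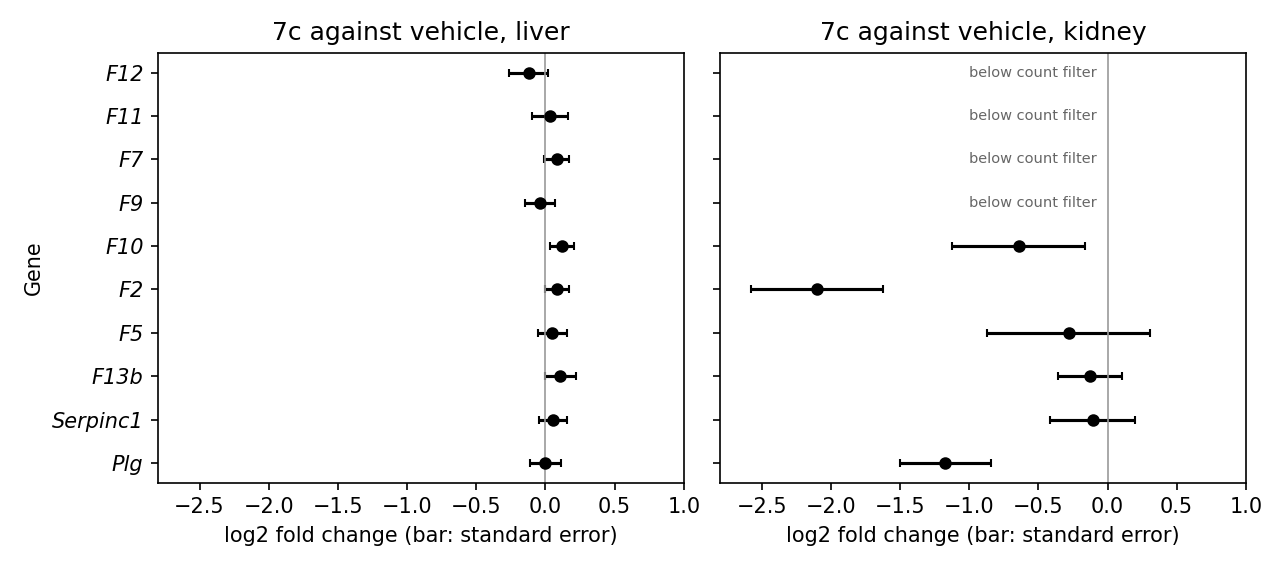
log2 fold change of 7c over vehicle with its standard error for the 10 genes in liver (6 against 4 libraries) and for the 6 genes above the count filter in kidney (6 against 4). The liver values lie between -0.12 and 0.12, whereas F2 (-2.10) and Plg (-1.17) lie farthest below 0 in kidney.

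In kidney, F2 and Plg, both at trace level, stood apart from the other genes. They were lower in every 7c kidney than in any vehicle kidney, while F13b, F5 and Serpinc1 overlapped between the treatments. The mean CPM was lower in the 7c kidneys for all 10 genes. The filter of 10 counts in at least 50% of the kidneys was passed by 6 of the 10, and F7, F9, F11 and F12 could not be tested across all genes.

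None of the 6 passed the threshold (edgeR quasi-likelihood test), and none of all 17749 genes did (0%). An unadjusted p under 0.05 was found for 2 of the 6, F2 and Plg, both lower in 7c, and for 463 of all genes (2.61%), of which 218 were lower (1.23%). That number depends on single libraries: it was 1801 of 17514 genes without vehicle replicate 2 and 769 of 17518 without 7c replicate 3. The kidney of vehicle replicate 2 stood apart from the other 3 vehicle kidneys, with a chi-square per gene of 124 to 199 against 27.9 to 29.5 among them, and that of 7c replicate 5 from the other 7c kidneys (69.9 to 246 against 31.2 to 102). DESeq2 called 1 of the 6 (F2; 0.101% of all genes), edgeR's likelihood ratio test called 1 (F2; 0.0789%) and limma-voom called none (0.0113%). All 6 log2 fold changes were below 0, with a median of -0.46 against -0.0057 over all genes tested. In bulk tissue, fewer cells of a type and less RNA per cell cannot be told apart.

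F2 had 0.303, 0.360, 0.107, 0.414, 0.376 and 0.384 CPM in the 7c kidneys (replicates 1 to 6; 4 to 20 counts) and 2.22, 2.06, 0.535 and 0.768 CPM in the vehicle kidneys (replicates 1 to 4; 20 to 85 counts). All 6 7c kidneys were below the vehicle range, and vehicle replicates 1 and 2 were far above the other 2. The log2 fold change was -2.10 (standard error 0.478, unadjusted p = 0.000777, adjusted p = 0.997). The adjusted p of F2 was 0.0370 with DESeq2, 0.0293 with the likelihood ratio test, 0.0250 with that test on halved counts, and 0.00529 when both tissues were fitted together. The fit of both tissues gives each gene 1 spread for both organs. Since the livers varied less, it can understate the spread among kidneys. Under the other alternatives it lay between 0.683 and 1.00, and without any 1 replicate between 0.476 and 1.00. F2 is on the list of kidney genes that the study drew from these same libraries, so its direction there is not independent evidence.

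Plg had 0.681, 0.360, 0.481, 0.466, 0.751 and 0.624 CPM in the 7c kidneys (12 to 45 counts) and 1.75, 1.14, 1.34 and 0.838 CPM in the vehicle kidneys (24 to 67 counts). All 6 were again below the vehicle range, the gap between 7c replicate 5 and vehicle replicate 4 being small. The log2 fold change was -1.17 (standard error 0.328, unadjusted p = 0.00360, adjusted p = 0.997). Fitted together with the liver libraries, which share 1 spread with the kidneys in that fit, its adjusted p was 0.0264. Under the other alternatives it was between 0.215 and 1.00.

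All 6 7c kidneys below all vehicle kidneys was found for 72 of the 17749 genes (0.406%), and for 2 of the 10 described here. With an unadjusted p under 0.05 as well, it was found for 0.293% of all genes and for the same 2, F2 and Plg. Without vehicle replicate 2 the log2 fold change was -1.85 for F2 and -1.21 for Plg, and without 7c replicate 5 it was -2.15 and -1.27. The opposite, all 6 above, was found for none of the 10 and for 0.31% of all genes. The exact permutation test on log2(CPM + 1) gave p = 0.00476 for F2 and for Plg (two-sided, unadjusted), the smallest that 210 splits of 6 against 4 can give. It was run for the 10 genes in both organs, 20 tests, and 1 more of them was under 0.05, that of F9 in kidney (exact p = 0.0381). F9 had 2, 0, 0, 0, 0 and 2 counts in the 7c kidneys and 2, 16, 4 and 0 in the vehicle kidneys, so that it rests mainly on vehicle replicate 2.

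The 2 genes with the highest kidney levels gave no such separation. F13b had 57.5, 86.3 and 133 CPM as lowest, median and highest of the 7c kidneys and 117, 63.7, 130 and 86.0 CPM in the vehicle kidneys, with 1 7c kidney below and 1 above the vehicle range. Its log2 fold change was -0.12 (standard error 0.230). F5 had a log2 fold change of -0.28 (standard error 0.588), the widest error of the 6.

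Serpinc1 had 2.52, 5.19 and 7.16 CPM in the 7c kidneys and 3.14, 5.49, 7.89 and 5.87 CPM in the vehicle kidneys. The ranges overlapped, and the log2 fold change was -0.11 (standard error 0.306). F10 had 0.182, 0.335 and 0.913 CPM against 0.837, 0.613, 0.535 and 0.559 CPM, with replicates 1 to 5 of 7c under the lowest vehicle kidney and replicate 6 over the highest (-0.64, standard error 0.483, p = 0.114 in the exact permutation test).

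F12 had counts in 2 of 6 7c kidneys and in 4 of 4 vehicle kidneys, 10 and 18 counts in total. F11 had 3 and 6 counts in total and F7 had 30 and 27, so that no difference was detectable at this depth.

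**Figure D4:**
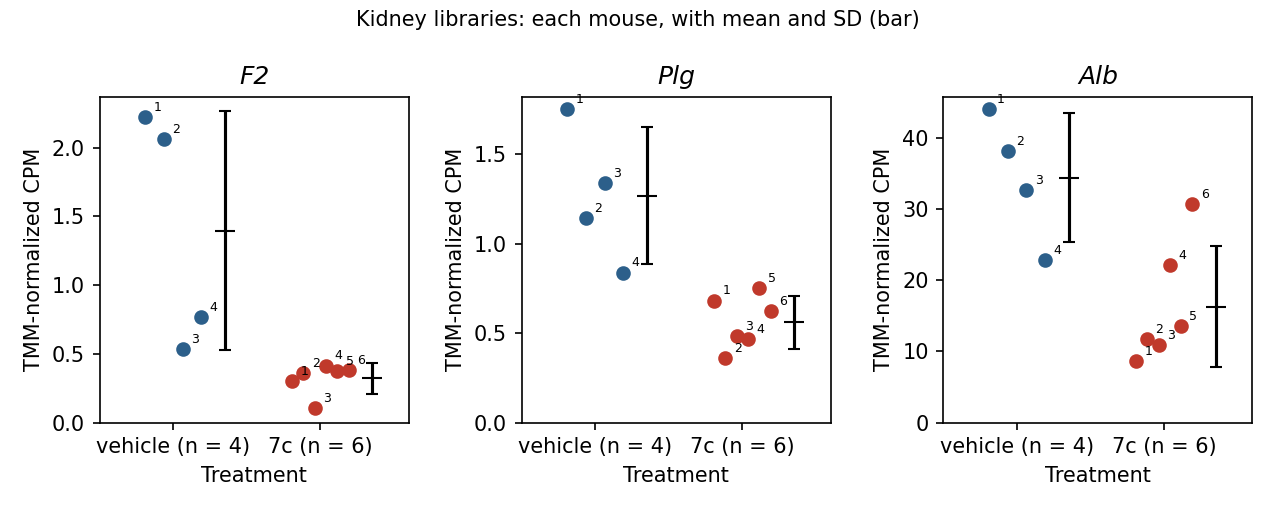
TMM-normalized CPM of F2, Plg and the hepatocyte marker Alb in each kidney (points, numbered by replicate) with the mean and SD of 4 vehicle and 6 7c kidneys (bars). F2 and Plg are lower in all 6 7c kidneys than in any vehicle kidney, while Alb overlaps through 7c replicate 6 at 30.7 CPM and vehicle replicate 4 at 22.8 CPM.

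Several other hepatocyte genes also had lower values in the 7c kidneys. Alb, the most abundant hepatocyte transcript, had 8.69, 11.8, 10.9, 22.2, 13.6 and 30.7 CPM in the 7c kidneys and 44.0, 38.2, 32.7 and 22.8 CPM in the vehicle kidneys (-1.08, standard error 0.322, unadjusted p = 0.00541, adjusted p = 0.997). Apoa2, an apolipoprotein of hepatocytes, had 0.697 to 4.49 CPM against 3.10 to 15.7 CPM (-1.58). Ttr had 67.2 to 313 CPM against 168 to 243 CPM (-0.08).

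Of 12 hepatocyte markers, 10 had a lower mean in the 7c kidneys, 6 of the 11 tested had an unadjusted p under 0.05 and a lower level, and 1 (Cps1) was below the vehicle range in all 6. Over all genes, 1.23% were lower with an unadjusted p under 0.05 and 0.406% were below the vehicle range in all 6. None of the markers was called. The 12 markers summed to 89.6 to 342 CPM in the 7c kidneys and 219 to 332 CPM in the vehicle kidneys, and without Ttr, which made up most of the sum, to 22.4 to 52.5 CPM and 48.9 to 88.9 CPM. None of the 12 was at 0 in all kidneys of a group. Their part in the F2 and Plg result was not tested.

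Relative to Alb, F2 had 25.3 to 35.4 counts per 1000 Alb counts in the 10 livers. It had 9.80 to 34.8 in the 7c kidneys and 16.4 to 53.9 in the vehicle kidneys, with medians of 23.2 and 42.1, the first below and the second above the liver range. Plg had 31.9 to 53.2 in liver, 20.3 to 78.4 in the 7c kidneys and 29.9 to 40.9 in the vehicle kidneys, with kidney medians of 37.4 and 38.2. For both genes the ranges of the 2 kidney groups overlapped each other and the liver range.

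F13b had 2.96 to 5.18 counts per 1000 Alb counts in liver and 1668 to 12221 in kidney, where it outnumbered Alb itself. F5 (4.70 to 8.08 in liver, 65.9 to 1328 in kidney), Serpinc1 (27.1 to 44.0 and 71.3 to 824) and F10 (7.03 to 10.9 and 16.0 to 35.7) were also above their liver ratio in every kidney. F7, F9, F11 and F12, with 0 to 17 counts per kidney, had ratios on both sides of the liver range.

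As a share of the mean level in livers of the same treatment, F2 had a median of 0.0199% in the 7c kidneys and 0.0808% in the vehicle kidneys, and Plg had 0.0246% and 0.0551%. Alb had 0.0197% and 0.0633%. Serpinc1 (0.238% and 0.271%), F5 (3.21% and 3.64%) and F13b (35.6% and 45.1%) were at higher shares in both groups. Because the organs were scaled separately, a share compares genes and treatments and is not the organ ratio of the joint fit.

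**Figure D5:**
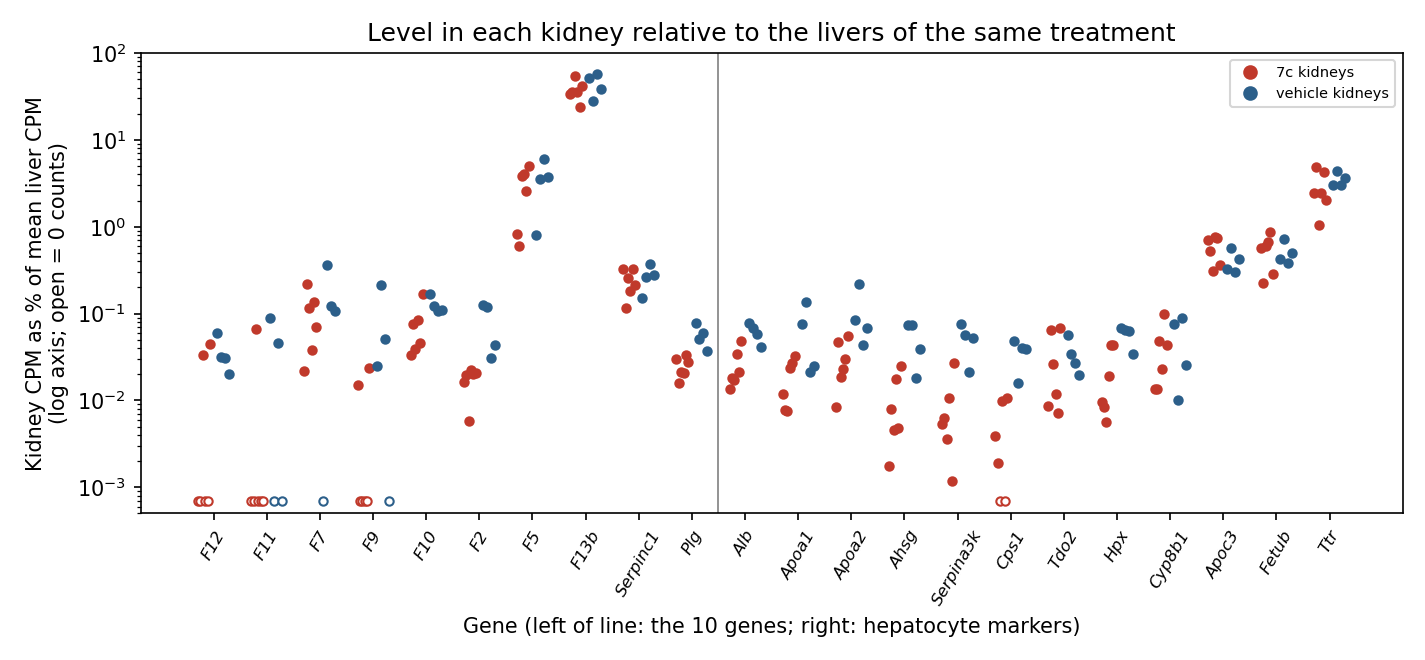
CPM in each kidney as a percentage of the mean CPM of the livers of the same treatment (log axis) for the 10 genes (left) and 12 hepatocyte markers (right), 6 7c and 4 vehicle kidneys, with open symbols for 0 counts. Each organ was scaled separately. F2 and Plg lie at the level of Alb, with medians of 0.0199% to 0.0808%, and F5 and F13b lie far above it.

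Fat cell markers had higher values in the same kidneys. The 4 markers (Adipoq, Cidec, Plin1 and Cfd) summed to 9.90 to 54.6 CPM in the 7c kidneys and 0.557 to 13.1 CPM in the vehicle kidneys. All 4 had an unadjusted p under 0.05, as did 1.38% of all genes with a higher level in 7c, and none was called. Markers of tubule segments and podocytes had median log2 fold changes of -0.10 to 0.19 by cell type, with no unadjusted p under 0.05, and their part in the result was not tested either.

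In the wider pathway none of the 46 genes tested in kidney was called, with a median of -0.04, and 2 had an unadjusted p under 0.05. Cebpb had 9.19, 12.7 and 17.2 CPM as lowest, median and highest of the 7c kidneys and 8.29, 10.6, 5.94 and 10.7 CPM in the vehicle kidneys (0.55, standard error 0.205, unadjusted p = 0.0193). Vwf had 1.80 to 4.57 CPM against 1.23 to 2.35 CPM (0.63, standard error 0.286, unadjusted p = 0.0473). Both overlapped between the groups. The third lowest was that of Mcfd2, which helps to export factors V and VIII from the cell (0.26, unadjusted p = 0.0598).

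The fibrinogen chains differed from each other in level in the kidney. Fga had 14.4 to 27.7 CPM in the 10 kidneys and a log2 fold change of -0.03. Fgb had 0.120 to 2.90 CPM and -0.94 (standard error 0.485), and Fgg had -0.51 (standard error 0.424). F3 was at -0.05, F8 at 0.21 and Proc at 0.18.

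Whether the response to 7c differed between liver and kidney was tested as an interaction, the liver log2 fold change minus the kidney one, for the 6 genes above the filter in both organs. None of the 6 passed the threshold, and 1 of 14163 genes did (0.00706%). F2 and Plg had an unadjusted p under 0.05, as did 2.49% of all genes, and limma-voom called neither, while edgeR's likelihood ratio test (0.155% of all genes) and DESeq2 called both. DESeq2 gave an adjusted p to 3452 genes (0.463% of them called), since its filter on mean counts, which F2 and Plg passed with their liver counts, left 10711 without one. The interaction of F2 was 2.19 (standard error 0.412, adjusted p = 0.114) and that of Plg was 1.16 (standard error 0.263, adjusted p = 0.291), each reflecting a liver change near 0 and a kidney change below it. For F2 the adjusted p was 0.0355 without vehicle replicate 3, whose kidney had the lowest F2 level of the vehicle group, and 0.0138 without a filter on low counts. F10 had 0.78 (standard error 0.374), and F5, F13b and Serpinc1 had 0.33, 0.22 and 0.15 with standard errors of 0.636, 0.266 and 0.328. For F2, Plg and F10 the standard error of the interaction was below that of the kidney change alone. The fit gave each gene 1 spread for both organs. The SD of F2 was 34.7% (7c) and 62.2% (vehicle) of its mean in kidney, and 7.29% and 4.61% in liver. The interaction tests can thus understate the kidney spread, and their p-values may be too low.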

How the data were processed

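Libraries were stranded and poly(A)-selected. Per the labels and the methods, STAR 2.7.11b aligned the reads to GRCm39 and featureCounts 2.0.6 assigned them to genes (versions from the submitters' processing notes). The authors deposited unnormalized counts for 57010 genes. The annotation release, the strand setting and the read layout of the counting are not given in the sources used here. All 20 columns were mapped to a sample by their labels. Symbols, positions and transcript lengths came from GENCODE vM39 by Ensembl identifier (700 genes unmatched, 0.0417% of the counts).

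Genes reaching 10 counts in 50% or more of the libraries in a fit were tested with edgeR 4.0.16 (TMM, glmQLFit and glmQLFTest, treatment or tissue as the only term, R 4.3.3), with Benjamini-Hochberg adjustment over all genes tested and a threshold of 0.05. Exact permutation tests of the mean log2(CPM + 1) were two-sided, with raw p-values. Replicates of a group were separate mice. The chi-square per gene was at least 27.9 in all 42 pairs of libraries of 1 group, so no library counted as repeated. Alternatives were DESeq2 1.42.0, edgeR's likelihood ratio test, RLE factors, voom in limma 3.58.1, filterByExpr or no filter, a fit of both tissues together, a block for the replicate number, and leaving out each replicate. Halved counts and plain library sizes were added after seeing the data.

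The 10 genes and the lists were chosen with earlier results of these data known. All 10 are named, as are Fga, Fgb, Fgg, F3, F8, Vwf and Proc, pathway genes past the threshold in a 7c comparison, the 3 of lowest p in each organ, the 5 with the largest fold each way between organs, and Alb, Apoa2 and Ttr. Hnf4a, Nr1h4, Foxa2, Cebpa and the overlapping genes were named after their values were seen, as were Cps1 and Acta1. Some listed or neighbouring genes are not reported here. Promoters were read from GRCm39 with Python 3.11.15.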

Additional observations from a re-analysis of the deposited data

Results flagged for a closer look

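Within each group, the highest and the lowest sample were compared with their nearest neighbour by Dixon's ratio. Of 40 groups (10 genes, 2 organs, 2 treatments), 2 held a sample past the critical value, and chance flags about 1 group in 20. Both concerned the kidney of 7c replicate 3. Its F2 level of 0.107 CPM was the lowest of the 6 7c kidneys, the next being 0.303 CPM, and rests on 4 counts. Without this replicate, the log2 fold change of F2 in kidney was -1.93 in place of -2.10. The F11 level of 0.0802 CPM was the highest of the 6, the others being at 0, and rests on 3 counts, the number that a count of 0 would still allow.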

How the results depend on the processing

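None of the 10 genes was called in liver under any setting, and the 6 genes with at least 10 counts in every vehicle kidney were higher in liver than in kidney under every setting. In liver 1 gene of all was called, against 6 with DESeq2, 7 with the likelihood ratio test, 8 with that test on halved counts, 4 without a filter, 2 with filterByExpr and 4 with both tissues in 1 fit. In kidney 0 were called, against 18 with DESeq2, 2 with limma-voom, 14 with the likelihood ratio test, 16 with that test on halved counts, 2 with halved counts alone, 3 without a filter and 18 with both tissues in 1 fit. Of the 10 genes, the number called in kidney rose from 0 to 1 (F2) with DESeq2 and the likelihood ratio test on full or halved counts. It rose to 2 (F2 and Plg) with both tissues in 1 fit, where the organs share 1 spread per gene. For the interaction 1 gene of all was called, against 16, 0, 22, 28, 11 and 4 with DESeq2, limma-voom, the likelihood ratio test, that test on halved counts, no filter and filterByExpr, and of the 10 genes 2, 0, 2, 1, 1 and 0. The causes were not tested.

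The replicate numbers are not stated to mark the same mouse or cage across groups. Deviations of liver and kidney libraries of the same number correlated at -0.034 to 0.314, over 0.1 in 7 of 10, and 6 of 10 correlated best with their own number. With the number as a block, 0 genes were called in liver and for the interaction. Under it liver log2 fold changes took the other sign for F11 (-0.084), Fga (0.016), Fgb (0.0053), Fgg (0.030) and F8 (0.015), and the kidney one for Fga (0.062).

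Differences near 0 changed sign elsewhere. Plg in liver (-0.00056) was 0.0025 with RLE and DESeq2, 0.0070 with limma-voom, 0.012 without a filter, 7.7e-05 with filterByExpr and 0.0045 with both tissues in 1 fit. With plain library sizes the log2(CPM + 1) difference was -0.018 for F11 and -0.029 for Plg in liver.

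Leaving out 1 replicate gave 0 to 2 called genes in liver, 0 to 3 in kidney and 0 to 6 for the interaction, with 0 to 1 of the 10 genes. Liver log2 fold changes then ran from -0.033 to 0.10 (F5), -0.11 to 0.049 (F9), -0.026 to 0.092 (F11), -0.068 to 0.084 (Plg), -0.0038 to 0.12 (Serpinc1), -0.11 to 0.057 (Fga), -0.13 to 0.0023 (Fgb), -0.11 to 0.01 (Fgg), -0.24 to 0.32 (F3), -0.093 to 0.54 (Vwf), -0.22 to -0.0053 (F12), 0.026 to 0.13 (F7), 0.055 to 0.18 (F13b) and -0.41 to -0.064 (F8). Kidney ones ran from -0.61 to 0.12 (F5), -0.28 to 0.034 (F13b), -0.31 to 0.11 (Serpinc1), -0.14 to 0.051 (Fga), -0.20 to 0.073 (F3), -1.06 to -0.47 (F10), -0.75 to -0.14 (Fgg), 0.091 to 0.47 (F8) and 6.4e-05 to 0.41 (Proc), and interactions from -0.045 to 0.68 (F5), -0.078 to 0.42 (Serpinc1), 0.016 to 0.47 (F13b) and 0.55 to 1.2 (F10). F2 in kidney stayed between -2.37 and -1.79 and Plg between -1.32 and -0.98. Depth limits F7, F9, F11 and F12 in kidney, with at most 17 counts per library.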

Other observations

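Proc, the gene of the anticoagulant protein C, had RNA in both organs, with 359.2 ± 28.5 RPKM (SD, n = 10) in liver and 226.5 ± 73.6 RPKM in kidney. Its 215 to 595 CPM in the 7c kidneys overlapped the 251 to 479 CPM in the vehicle kidneys. Among the fibrinogen chains, Fga (8.02 ± 1.48 RPKM) was above Fgb (0.365 ± 0.198 RPKM) in every kidney, whereas in liver Fga had 1821 RPKM and Fgb 1107 RPKM.

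Marker genes of platelets, endothelium, macrophages and red cells overlapped in their summed levels between 7c and vehicle in both organs. Muscle markers were at most 2.30 CPM in sum in any kidney.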
